A study of Mus musculus with 4 samples.

Results

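The apoptosis signal-regulating kinases, or ASK family, are 3 protein kinases encoded by Map3k5 (ASK1), Map3k6 (ASK2) and Map3k15 (ASK3). They were followed here through every array probe that the scanner files name for one of them, which gave 5 probes of 55681 on the array and 3 genes of the 22066 whose names were matched to RefSeq. Map3k5 and Map3k6 have 2 probes each and Map3k15 has 1, and each probe is described on its own because probes of different sequence bind with different strength. RNA from interscapular brown adipose tissue (iBAT) and epididymal white adipose tissue (eWAT) of wild-type (WT) and ASK1-deficient mice was measured on 4 one-colour Agilent arrays. The 4 groups were WT iBAT, ASK1KO iBAT, WT eWAT and ASK1KO eWAT, with 1 array each and RNA pooled on each from 3 male mice aged 10 weeks under normal conditions, with no agent given. The study gives the ASK1 deficiency as carried in the whole body. Its methods give the mice as C57BL/6J and state that WT and ASK1-deficient mice were bred in separate colonies, so the genotype and the colony cannot be told apart. Which part of Map3k5 these mice lack is not given in the sources used here. With no replicate of any condition, genotypes within a tissue were compared without a test.

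ASK kinases stand at the top of a stress-activated cascade. As MAP3K enzymes they phosphorylate the MAP2K enzymes encoded by Map2k4 and Map2k7, which activate JNK, and those encoded by Map2k3 and Map2k6, which activate p38. ASK1 is held inactive by reduced thioredoxin and responds to oxidative stress, inflammatory ligands and endoplasmic reticulum stress. ASK2 binds ASK1 in a shared complex and depends on it for the stability of the ASK2 protein, whereas ASK3 is best known from the kidney, where it responds to osmotic stress. In adipocytes, p38 is known as a link between cyclic AMP signalling and Ucp1, the uncoupling protein of brown fat, and the series was made to look for a role of ASK1 in adipose tissue.

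The probe sequences show what each measurement reads, so the probes are printed here as the files give them. Of each of the 3 probes that match a single unbroken stretch of the genome, 30 of 60 bases are printed. Positions are on mouse build mm9 and every probe has the strand of a plus-strand transcript. Probe 1 of Map3k5 is assigned to chr10:19860474-19861330, a span of 857 bases for 60 bases of sequence, so its bases come from separate stretches of the genome with 797 bases between them. Probe 2 of Map3k5 lies 862 bases further on, at chr10:19862193-19862252, with no break. The Map3k6 probes lie at chr4:132808672-132808731 and chr4:132808784-132808843, separated by 52 bases. The Map3k15 probe is assigned to chrX:156560393-156560523, a span of 131 bases with 71 extra bases. Exons and untranslated regions were not assigned, because no annotation of this build was used. Capitals mark a run of TC repeated 6 times, which stands out in probe 2 of Map3k5.
Map3k5 probe 1: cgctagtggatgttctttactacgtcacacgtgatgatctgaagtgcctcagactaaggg
Map3k5 probe 2, bases 16 to 45: agaatgtgTCTCTCTCTCTCtgttcaggca
Map3k6 probe 1, bases 1 to 30: acagatacggatggatgaacagagaagaca
Map3k6 probe 2, bases 1 to 30: ggcaggcacccaaaggacactacatacaat
Map3k15 probe: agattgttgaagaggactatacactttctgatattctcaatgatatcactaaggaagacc

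TC, or GA on the other strand, repeated 6 times in a row occurs in 42 of 55681 probes, or 0.0754%. The longest run of bases that a family probe shares with any other probe of the array, on either strand, is 13 to 16 bases. The 2 Map3k5 probes carry the same transcript accession in the files, and the 2 Map3k6 probes carry different accessions.

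All 5 probes gave a signal well above background on all 4 arrays, as did 27613 of all probes, and each is printed on the array as a single spot. The signal is the intensity after the scanner software's background correction. Levels between arrays are given on a log2 scale after subtracting the 75th percentile of each array, which was 356 in WT iBAT, 371 in ASK1KO iBAT, 673 in WT eWAT and 634 in ASK1KO eWAT. The error printed beside a log2 difference is that of the scanner software's error model carried to the difference. The SD of a genotype difference over the repeated spots of a probe was 0.087 at the median in iBAT (276 probes) and 0.060 in eWAT (292 probes). Both errors cover the array and not the mice. All 4 arrays share 1 slide.

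The tissue labels were checked on marker genes. The Ucp1 probe gave 343275 in WT iBAT and 6603 in WT eWAT, and that of Cidea, another brown adipocyte gene, 514381 and 11532. Lep, the leptin gene of white fat, gave 162 in WT iBAT and 7232 in WT eWAT. Adipoq and Plin1, genes of all adipocytes, gave at least 35521 on every array. In ASK1KO iBAT the brown adipocyte list had 11 of 14 measured probes below 0 with a median log2 difference of -0.37, led by Elovl3, a fatty acid elongase, at -4.10 and Dio2, the thyroid hormone deiodinase, at -2.37. In eWAT that list had a median of -0.83, with Ucp1 at -4.63. Among other lists, macrophage markers had 14 of 15 probes above 0 in ASK1KO iBAT with a median of 0.51. Hepatocyte markers had 8 of 8 below 0 in ASK1KO eWAT with a median of -2.39, though both Cyp2e1 probes were level there, at -0.008 and -0.0001. Of all probes measured, 56.2% were below 0 in iBAT and 42.3% in eWAT. In eWAT the macrophage list had a median of -0.06. In iBAT the 6 hepatocyte probes measured on both arrays had a median of -0.05, but the other 4 of the list were well above background in the ASK1KO pool alone, Alb, the albumin gene, at 7.50 in WT and 115 in ASK1KO iBAT, Ahsg at 5.02 and 107.5, Ttr at 10.1 and 44.8, and Fgb at 4.56 and 24.6. The medians of the white adipocyte, general adipocyte, endothelial, T cell, skeletal muscle, fibroblast, mesothelial and epididymal lists lay between -1.01 and 0.22 in iBAT and between -0.58 and 0.19 in eWAT, beside -0.05 and 0.03 for all probes. Their part in the values below was not tested, and in bulk tissue fewer cells of a type and less RNA per cell cannot be told apart.

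**Figure D1:**
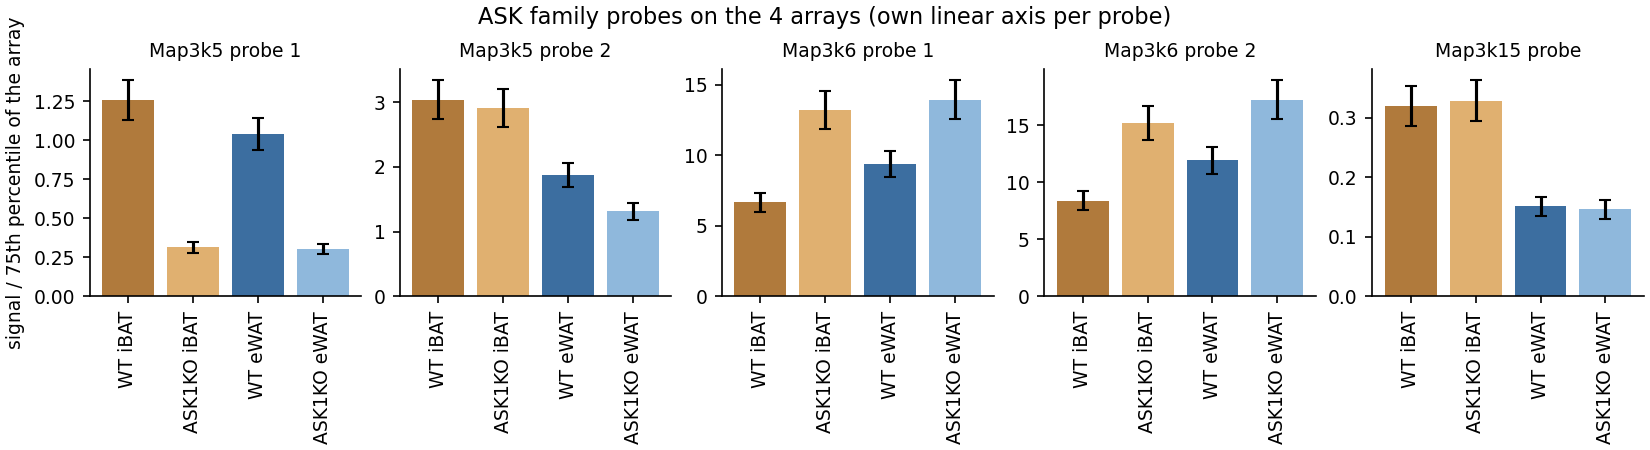
Signal of each ASK family probe divided by the 75th percentile of its array, on the vertical axis, for the 4 arrays on the horizontal axis. Bars are single arrays and whiskers the scanner software's error; each probe has its own axis from 0, and only Map3k5 probe 1 is low on both ASK1KO arrays.

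Map3k5 encodes the kinase that these mice lack. At probe 1 the signal was 448 in WT iBAT, 117 in ASK1KO iBAT, 701 in WT eWAT and 194 in ASK1KO eWAT. Both ASK1KO arrays were lower than both WT arrays. After scaling, the log2 difference, ASK1KO minus WT, was -2.0 ± 0.21 in iBAT and -1.76 ± 0.21 in eWAT (error of the software's model, 1 array per group), which is 4.0-fold and 3.40-fold lower. Of all probes measured, 0.056% had a lower difference in iBAT and 0.19% in eWAT. The remaining signal was not at the floor of the array. It was 6.75 times the lowest signal well above background in ASK1KO iBAT and 9.37 times that in ASK1KO eWAT.

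Probe 2 of Map3k5 gave another picture. The signal was 1081 in WT iBAT, 1082 in ASK1KO iBAT, 1264 in WT eWAT and 836 in ASK1KO eWAT. In iBAT both genotypes were level, and in eWAT the ASK1KO array was the lower one. The log2 difference was -0.06 ± 0.20 in iBAT and -0.51 ± 0.20 in eWAT, or 1.42-fold lower. The tissues thus differed in this difference by 0.45 ± 0.29, which was not tested. A probe outside the deleted part of a gene does not check a knockout, and whether either probe lies inside it is not known here. No statement on the full Map3k5 transcript in ASK1-deficient tissue follows from these probes.

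Disagreement of this size between probes of one gene was uncommon on these arrays. The difference at probe 2 was higher than that at probe 1 by 1.94 ± 0.29 on the log2 scale in iBAT and by 1.25 ± 0.29 in eWAT. Over the 3229 genes with exactly 2 probes well above background on all 4 arrays, the 2 differences lay a median of 0.158 apart in iBAT and 0.103 apart in eWAT. A 2-fold gap between probes occurred in 1.3% of these genes in iBAT and in 0.557% in eWAT. Only 0.124% of them had probes farther apart than Map3k5 in iBAT, and 0.341% in eWAT. Map3k6, in contrast, had its probes 0.126 apart in iBAT and 0.043 in eWAT, within the error of 0.29.

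**Figure D2:**
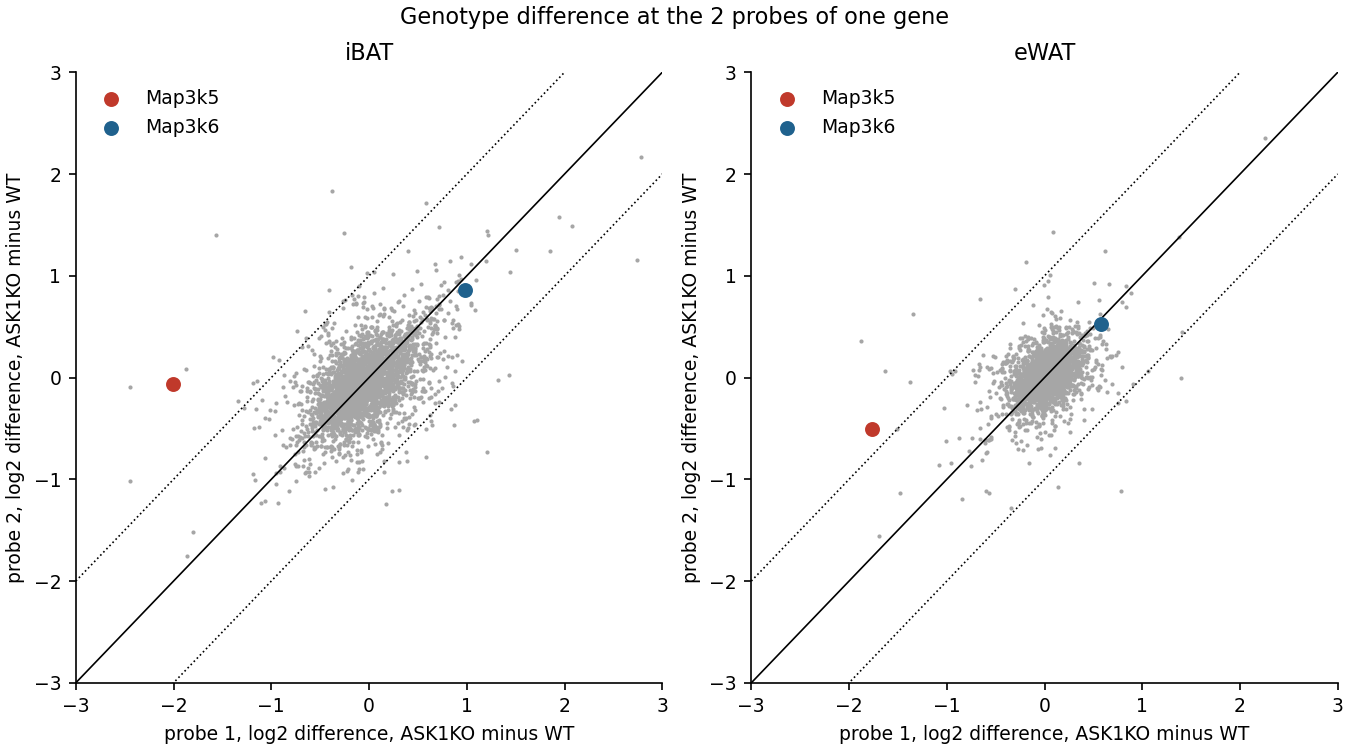
Log2 difference, ASK1KO minus WT, at the first probe by position (horizontal) and the second (vertical) of each of 3229 genes with 2 probes, in iBAT (left) and eWAT (right). The solid line marks equal values and the dotted lines a 2-fold gap; Map3k5 lies beyond a dotted line in both panels and Map3k6 on the diagonal, and 6 genes fall outside the eWAT axes.

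Map3k6, the gene of ASK2, was higher in the ASK1-deficient pool in both tissues and at both probes. Probe 1 gave 2376 in WT iBAT, 4905 in ASK1KO iBAT, 6307 in WT eWAT and 8836 in ASK1KO eWAT. At probe 2 the signal was 2979, 5634, 8025 and 10911 on the same arrays. Within each tissue the ASK1KO array was the brighter one at either probe. The log2 differences in iBAT were 0.98 ± 0.20 at probe 1 and 0.86 ± 0.20 at probe 2, or 1.98-fold and 1.81-fold. In eWAT they were 0.57 ± 0.20 and 0.53 ± 0.20, or 1.49-fold and 1.44-fold. All 4 were 2.60 to 4.82 times the software's error. The difference was larger in iBAT than in eWAT by 0.41 ± 0.29 at probe 1 and by 0.33 ± 0.29 at probe 2, which was not tested.

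Few probes did the same. A difference at least as high as that of the lower Map3k6 probe in both tissues was found in 83 of 27613 probes, or 0.301%. In iBAT alone 0.962% of probes were higher than Map3k6 probe 1 and 1.58% higher than probe 2, and in eWAT 2.38% and 2.90%. The summed scaled signal of the macrophage markers was 46.5 in WT iBAT and 60.6 in ASK1KO iBAT, and 198 in WT eWAT and 189 in ASK1KO eWAT. The brown adipocyte list summed to 4047 in WT and 3403 in ASK1KO iBAT, and to 56.1 in WT and 23.9 in ASK1KO eWAT. The part of either list in the Map3k6 values was not tested.

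The Map3k15 probe, for the gene of ASK3, was the only family probe whose genotypes lay within the software's error in both tissues. It gave 114 in WT iBAT, 122 in ASK1KO iBAT, 102 in WT eWAT and 92.7 in ASK1KO eWAT. The genotypes differed by 0.04 ± 0.22 in iBAT and by -0.05 ± 0.22 in eWAT on the log2 scale. These signals were 4.48 to 7.07 times the lowest signal well above background of their array. The range within 1 software error is 0.885-fold to 1.19-fold in iBAT and 0.83-fold to 1.13-fold in eWAT, which leaves out the spread between mice.

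**Figure D3:**
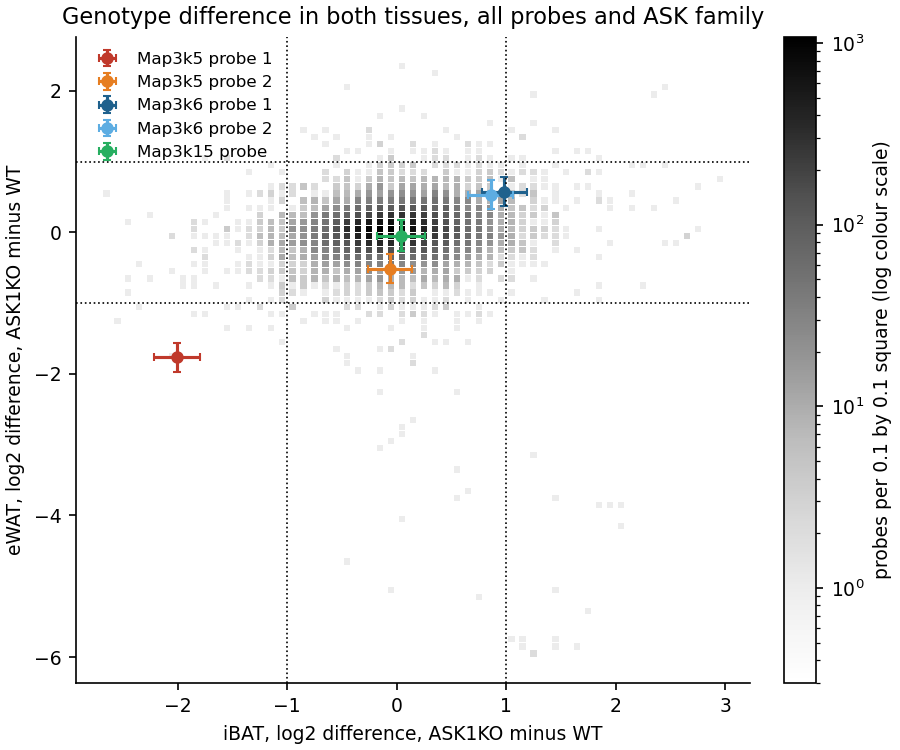
Log2 difference, ASK1KO minus WT, in iBAT (horizontal) and eWAT (vertical); grey squares count the 27613 probes bright enough on every array, on a log colour scale, and coloured points are the 5 ASK family probes with the software's error. Dotted lines mark 2-fold; Map3k5 probe 1 lies below both lower lines, the Map3k6 probes lie to the upper right inside the 2-fold lines, and 5 probes fall outside the squares drawn.

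At a 2-fold threshold, 1 of the 5 family probes was lower in ASK1KO iBAT and none was higher. Of all 28384 probes measured in iBAT, 0.923% were higher and 0.941% lower by this threshold. The same family probe, Map3k5 probe 1, was the only one past 2-fold in eWAT, where 0.372% of 31725 probes were higher and 0.662% lower. The split over all probes moved with the scaling, from 262 higher and 267 lower in iBAT to 381 and 182 with the percentile taken over bright probes (those well above background on every array) and 191 and 359 with the series table, and from 118 and 210 in eWAT to 88 and 251 with no scaling, and normexp correction left 82 and 97 in iBAT and 23 and 78 in eWAT. In both tissues at once, 15 of 27613 probes were at least 2-fold lower, or 0.0543%, and Map3k5 probe 1 was among them. Map3k6 probe 1 lay close to the threshold in iBAT. It passed 2-fold with no scaling, with the percentile taken over bright probes alone, after quantile normalization, after normexp correction and with no background correction. At a 1.5-fold threshold both Map3k6 probes were called higher in iBAT, as were 4.83% of all probes.

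A limma model of genotype plus tissue used all 4 arrays. It assumes a single genotype effect for iBAT and eWAT, with 1 residual degree of freedom. Map3k5 probe 1 had a genotype effect of -1.88 ± 0.15 (SE) with an adjusted p of 0.12 in limma, and it ranked 3 of 27613 probes by p. Map3k6 followed at 0.78 ± 0.17 with an adjusted p of 0.49 at probe 1 and 0.69 ± 0.16 with an adjusted p of 0.52 at probe 2, at ranks 176 and 237. Map3k5 probe 2 had an effect of -0.29 ± 0.17 with an adjusted p of 0.89, and Map3k15 of -0.003 ± 0.15 with an adjusted p of 0.998. In limma, 0 probes, or 0%, passed an adjusted p of 0.05 for genotype, beside 1789 at an unadjusted p under 0.05. With normexp background correction limma called 11 probes for genotype, and Map3k5 probe 1 passed with an adjusted p of 0.015.

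Between the tissues the members fell into different orders. The signal of Map3k15, scaled to the 75th percentile of its array, was 0.320 in WT iBAT and 0.329 in ASK1KO iBAT, against 0.151 in WT eWAT and 0.146 in ASK1KO eWAT. Both iBAT arrays were above both eWAT arrays, by 2.12-fold in WT and 2.25-fold in ASK1KO mice, while the genotypes within a tissue lay within the error. Scaled Map3k5 probe 2 was highest in iBAT, at 3.04 in WT and 2.91 in ASK1KO, which differed by less than the error. It was 1.88 in WT eWAT and lowest, at 1.32, in ASK1KO eWAT. Scaled Map3k6 probe 1 was lowest in WT iBAT at 6.68, then 9.37 in WT eWAT, 13.2 in ASK1KO iBAT and 13.9 in ASK1KO eWAT, where the last pair lay within the error. Probe 2 had the same order with 8.37, 11.9, 15.2 and 17.2. Scaled Map3k5 probe 1 was 1.26 in WT iBAT and 1.04 in WT eWAT, and 0.314 and 0.306 in the ASK1KO tissues. The cell type lists differed between these tissues too. In WT mice the median log2 difference, iBAT minus eWAT, was 9.21 for skeletal muscle, -2.98 for macrophage and -1.61 for fibroblast markers. Their part in these orders was not tested.

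In limma, Map3k15 was higher in iBAT by 1.13 ± 0.15 on the log2 scale with an adjusted p of 0.0013, and Map3k5 probe 2 by 0.92 ± 0.17 with an adjusted p of 0.0053. The other 3 family probes did not pass. The call of Map3k5 probe 2 was lost with no scaling and without the filter on dim probes, whereas both Map3k6 probes passed, as lower in iBAT, with normexp correction and with no scaling, and probe 2 also after quantile normalization. Map3k5 probe 1 passed as lower in iBAT with no scaling. Calls between the tissues were common, with 53.5% of all probes called, and these too rest on no replicate pool. By fold, in WT mice 1 of the 5 family probes was at least 2-fold higher in iBAT, as were 16.9% of all probes, and 0 were at least 2-fold lower, beside 10.5% of all probes. In ASK1KO mice 2 of the 5 were at least 2-fold higher, beside 12.6% of all probes, and 0 lower, beside 10%. With no scaling the split over all probes turned from 4757 higher and 2959 lower to 1318 and 10210 in WT mice, and from 3673 and 2930 to 1114 and 9372 in ASK1KO mice. These orders depend on the scaling, since the 75th percentile of the signal was higher on the eWAT arrays. With no scaling the median of all probes moved by -0.92 in WT, the Map3k5 difference between WT tissues turned to -0.65 at probe 1 and -0.23 at probe 2, and that of Map3k15 was 0.16 and not called in limma, with an adjusted p of 0.13.

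The rest of the pathway was described by 5 gene lists. Of all probes measured in iBAT, 0.941% were at least 2-fold lower in ASK1KO mice and 0.923% higher. Among activators and adaptors of ASK1, 1 of 19 measured probes was at least 2-fold lower in ASK1KO iBAT and none was higher. That probe belongs to Dab2ip, a scaffold that promotes ASK1 activation by TNF, and gave 135 in WT iBAT, 25.8 in ASK1KO iBAT, 113 in WT eWAT and 117 in ASK1KO eWAT. Only the ASK1KO iBAT array was low. A second Dab2ip probe gave 9984 and 9773 in WT and ASK1KO iBAT, a log2 difference of -0.09 ± 0.20 beside -2.45 ± 0.31 at the first. The brightest genes of this list in WT iBAT were Dab2ip and Tnfrsf1a, a TNF receptor, whose brighter probe differed by -0.26 in iBAT and 0.02 in eWAT. The median of the list was -0.09 in iBAT and 0.001 in eWAT. In eWAT none of 19 probes passed 2-fold, beside 0.662% of all probes lower and 0.372% higher.

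Among the inhibitors and negative regulators of ASK1, none of 25 probes in iBAT and none of 24 in eWAT was 2-fold apart. Over all probes 0.923% were higher and 0.941% lower in iBAT, and 0.372% and 0.662% in eWAT. The list medians were -0.03 in iBAT and 0.06 in eWAT. Txn2, the mitochondrial thioredoxin, was the brightest gene of that list in WT iBAT, with 47182 there, 41224 in ASK1KO iBAT, 21306 in WT eWAT and 21253 in ASK1KO eWAT. Ywhae, which encodes an adaptor that binds phosphorylated ASK1, followed in WT iBAT with 27204, then 25223, 40370 and 38312. The log2 differences at these 2 probes lay between -0.26 and 0.08. A second Txn2 probe, the lowest of the list in iBAT, differed by -0.53 ± 0.21 there and by -0.24 ± 0.21 in eWAT.

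Of the other MAP3K kinases, 14 of 18 genes were measured in iBAT with 21 probes. Among these probes 1 was at least 2-fold higher, beside 0.923% of all probes, and none lower, beside 0.941%. It was Map3k8, a kinase of inflammatory signalling, with 36.1 in WT iBAT, 82.0 in ASK1KO iBAT, 283 in WT eWAT and 283 in ASK1KO eWAT. Its difference was 1.12 ± 0.29 in iBAT and 0.09 ± 0.21 in eWAT. The signal of 36.1 was close to the lowest one well above background in WT iBAT, 19.7. The part of the macrophage list given above in this value was not tested. Taok1 and Map3k4 were the brightest of this list in WT iBAT and differed by -0.13 and -0.06 there. In eWAT none of 23 probes of this list passed 2-fold, beside 0.372% higher and 0.662% lower of all probes. The highest was 0.13, below both Map3k6 probes.

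Downstream, the MAP2K genes had 5 of 5 measured probes below 0 in ASK1KO iBAT, from -0.61 to -0.05 with a median of -0.32 (-0.41 to -0.22 over the other settings), beside 56.2% of all probes below 0. The count fell to 4 with no scaling and to 3 with the percentile taken over bright probes. In eWAT 3 of 5 were below 0 with a median of -0.02. Map2k3 and Map2k4 were the brightest in WT iBAT, at 872 and 455, and gave 864 and 373 in ASK1KO iBAT. For the JNK and p38 kinases, the median over 10 probes was -0.09 in iBAT and 0.01 in eWAT. Mapk14, the gene of p38α, gave 5658 and 5286 in WT and ASK1KO iBAT and 11289 and 10786 in eWAT, and Mapk12, of p38γ, gave 1873 and 2288 in iBAT and 2839 and 2563 in eWAT. None of these probes was 2-fold apart in either tissue, beside the shares of all probes given above. The widest gaps within this list were at a single Mapk8 probe, of JNK1, at -0.76 in iBAT and -0.62 in eWAT, beside values from 0.08 to 0.24 at the other 2 probes of that gene.

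**Figure D4:**
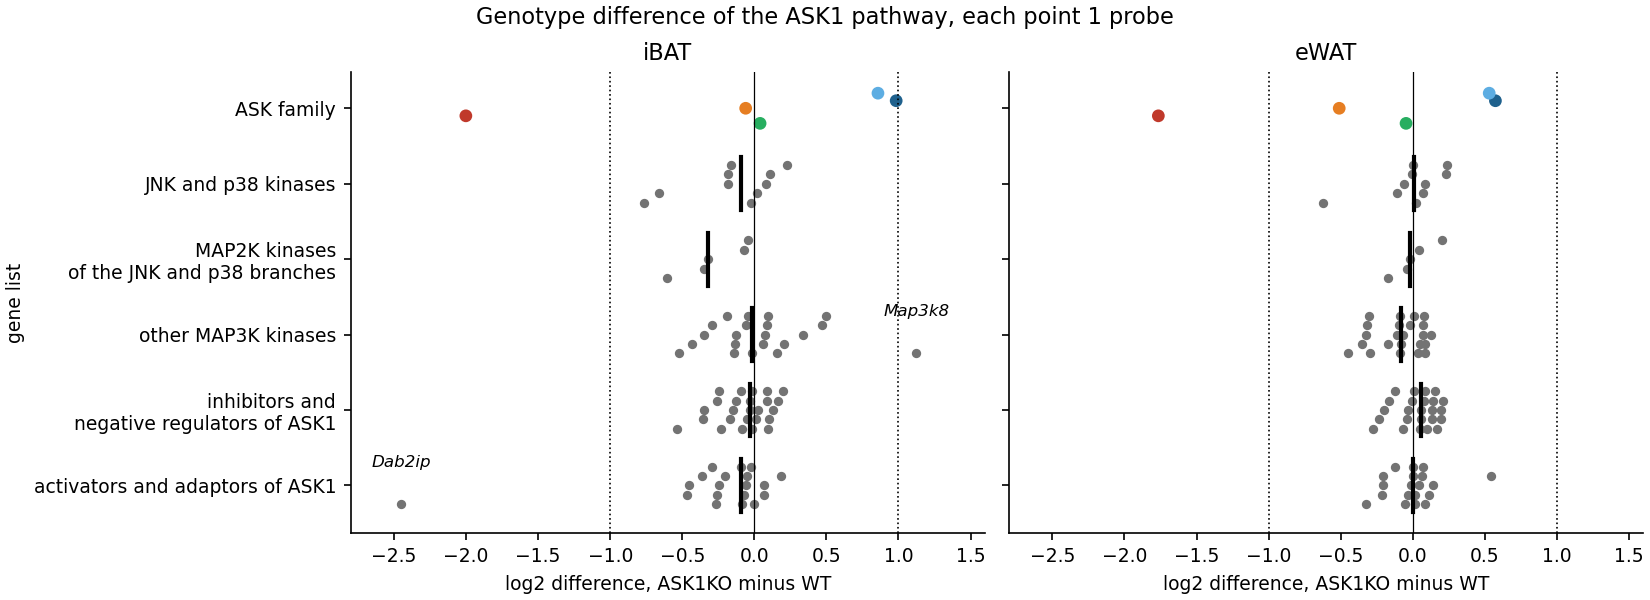
Log2 difference, ASK1KO minus WT, of each measured probe (points) in 5 pathway lists and in the ASK family, in iBAT (left) and eWAT (right). Black bars are list medians and dotted lines 2-fold; Dab2ip and Map3k8 in iBAT are the only probes of the 5 lists past 2-fold, and the coloured ASK family points spread from -2.0 to 0.98.

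The genes beside the members on their chromosomes were read by their order in RefSeq, 2 on each side. Of the 12, 11 have probes and 10 were measured in each tissue. In iBAT none of 14 probes was 2-fold apart, beside 0.923% higher and 0.941% lower of all probes, and their differences ran from -0.28 to 0.46. In eWAT the exception was Map7, a microtubule-binding protein gene next to Map3k5 and named Mtap7 in the files. Its probe at chr10:19998061-19998120 gave 43.7 in WT iBAT, 57.9 in ASK1KO iBAT, 67.5 in WT eWAT and 303 in ASK1KO eWAT. The probe at chr10:20000837-20000896 gave 68.2, 74.9, 120 and 578. Only the ASK1KO eWAT array was high at either probe. The log2 differences in eWAT were 2.25 and 2.36, and 0.0189% and 0.0126% of the 31725 probes were higher. In iBAT they were 0.34 and 0.07. Rpl32l, beyond Map7, has no probe. On the other side of Map3k5, Pex7, the peroxisomal import receptor, differed by -0.14 in iBAT and 0.33 in eWAT, and Slc35d3 was not well above background.

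Sytl1, which lies next to Map3k6 on the opposite strand, has a probe 172 bases from Map3k6 probe 2. It gave 1894 in WT iBAT, 1628 in ASK1KO iBAT, 511 in WT eWAT and 499 in ASK1KO eWAT, so its log2 differences were -0.28 ± 0.20 and 0.05 ± 0.20. Gpr3, a receptor gene that raises cyclic AMP, differed by 0.46 in iBAT and 0.09 in eWAT. Tmem222 and the 2 measured Cd164l2 probes lay between -0.23 and 0.15 in both tissues. Next to Map3k15, the probe of Pdha1, a subunit of pyruvate dehydrogenase, lies 141 bases away on the opposite strand and differed by -0.26 in iBAT and 0.28 in eWAT. Bclaf3, Sh3kbp1 and Adgrg2 lay between -0.23 and 0.37.

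Genes of like pattern were found by the distance between the 4 log2 levels after each probe's own mean was subtracted, over the 4 arrays and 19125 named probes (19126 for Map3k15). These are descriptions of 4 arrays, of which each has its own pool. The probe nearest to both Map3k6 probes was that of Nr1d1, which encodes the clock repressor REV-ERBα, at distances of 0.068 and 0.070. Nr1d1 gave 632 in WT iBAT, 1280.4 in ASK1KO iBAT, 1756 in WT eWAT and 2393 in ASK1KO eWAT. Its log2 differences were 0.96 in iBAT and 0.53 in eWAT, beside 0.98 and 0.57 at Map3k6 probe 1. The hour at which tissue was taken is not given in the sources used here. Next came Ttll3 at 0.153 and 0.080, then Shank2 at 0.192 for probe 1 and Olfr190 at 0.132 for probe 2. These 3 gave 37.4, 32.5 and 32.6 in WT iBAT, where the lowest signal well above background was 19.7. Their software errors between genotypes in iBAT, 0.28 to 0.30, were larger than these distances. The other Shank2 and Olfr190 probes were not well above background on any array. Both other Ttll3 probes lay further off, with iBAT differences of -0.16 and 0.22. Map3k6 probe 2 was at rank 3 of 27612 probes in nearness to probe 1, and probe 1 at rank 6 from probe 2.

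For Map3k5 the probes had unlike neighbours. Nearest to probe 1 were Zfp963 at 0.642, Ocel1 at 0.673 and Adh4 at 0.713, each further off than the nearest gene of any other family probe. The second Ocel1 probe went the other way, with log2 differences, ASK1KO minus WT, of 1.40 in iBAT and 0.62 in eWAT beside -1.56 and -1.35 at the first. Zfp963 gave 99.0 in WT iBAT, 45.8 in ASK1KO iBAT, 179 in WT eWAT and 64.3 in ASK1KO eWAT. Nearest to probe 2 were Map3k10, another MAP3K, at 0.083, Tgif2lx1 at 0.105 and Stk38l at 0.118, and probe 1 was only at rank 23740 of 27612. The Map3k10 probe was dim, with 65.2, 61.9, 70.5 and 48.7 on the same arrays. Its software error was 0.24 to 0.26 per log2 difference, above that distance. The second Map3k10 probe was not well above background on any array. Another Stk38l probe differed by -1.61 between genotypes in eWAT and by 0.03 between WT tissues, beside -0.37 and 0.79 at the probe used and -0.38 and 0.64 at the remaining one. Map3k15 was nearest to Gpbp1l1 at 0.024, Lman1l at 0.029 and Rps6ka5 at 0.032, genes that were higher in iBAT and level between genotypes. A second Gpbp1l1 probe did not follow it, with a WT tissue difference of 0.06 beside 1.08 at the first.

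**Figure D5:**
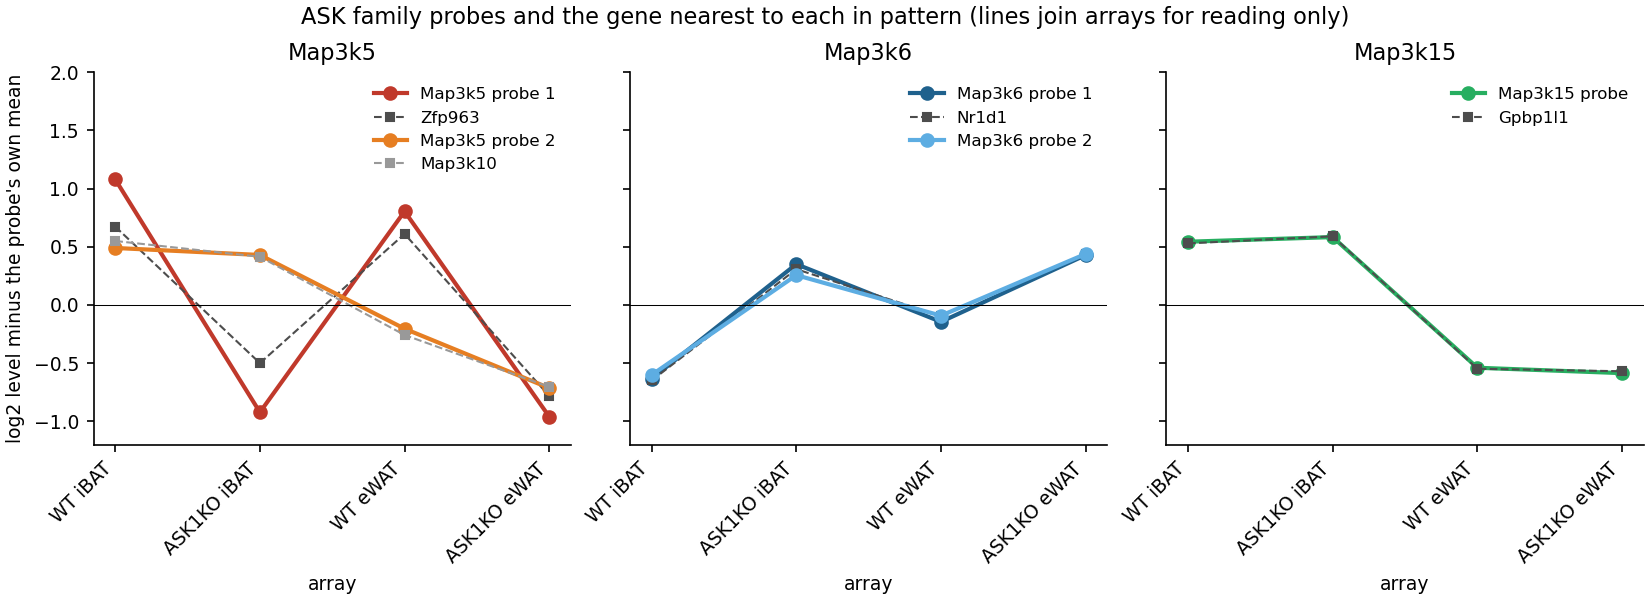
Log2 level of each ASK family probe minus its own mean (vertical) on the 4 arrays (horizontal), with the nearest gene of each probe dashed; lines only join points of 1 probe. Nr1d1 lies on both Map3k6 curves, whereas the Map3k5 probes cross.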

How the data were processed

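RNA pools were hybridized to Agilent 8 × 60K whole mouse genome arrays, 1 per group. The authors deposited the output of Agilent Feature Extraction 10.7.3.1, whose processed signal is a linear intensity with background corrected and no scaling between arrays. They also deposited a table of the series, a signal that equals the processed signal divided by 1 constant per array (30.9, 34.2, 59.9 and 55.4) and served as an alternative.

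Control spots and outlier spots were left out, log2 was taken, a probe's spots were averaged and each array's 75th percentile was subtracted. A probe was measured where most of its usable spots were well above background on both arrays compared. Genotype and tissue were fitted with limma 3.58.1 in R 4.3.3 over 27613 probes, with Benjamini-Hochberg adjustment, and the rest with Python 3.11.15, numpy 2.4.6, pandas 2.3.3 and matplotlib 3.10.9. The 2-fold count and the limma fit for genotype were tested on simulated arrays with known changes. The noise put in was that of repeated spots and left out the spread between mice. The number of arrays limits the precision. Of 34844 gene names, 22147 matched RefSeq symbols or synonyms. The genes named are the family, those of each pathway list 2-fold apart in ASK1KO against WT or among its 2 brightest in WT iBAT, 2 neighbours on each side, the 3 nearest in pattern and 7 tissue markers; the Mapk8 probes, Alb, Ahsg, Ttr, Fgb and the second probes of some genes were added after their values were seen. Lists and members were chosen with earlier results of these data known. Alternatives were other scalings, background corrections, filters, thresholds and the series table.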

Additional observations from a re-analysis of the deposited data

How the results depend on the processing

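No paired analysis was possible because each group has 1 array and so no replicate number to pair by, other than the limma model, which compares genotypes with the tissue as a term. For the same reason no array could be left out, and with 1 slide no slide block could be fitted. Of 70 values of a family probe between genotypes under other settings, 67 moved by less than the software's error and none of the called differences changed direction. Map3k5 probe 1 moved to -1.47 in iBAT and -1.50 in eWAT with normexp background correction and to -1.70 in iBAT with no background correction. The count of family probes at least 2-fold higher in ASK1KO iBAT rose from 0 to 1 with no scaling, with the percentile taken over bright probes, and after quantile normalization, normexp and no background correction, and to 2 at 1.5-fold. Between tissues, iBAT minus eWAT, no scaling gave -0.65 for Map3k5 probe 1, -0.23 for probe 2, -1.41 and -1.43 for Map3k6 and 0.16 for Map3k15 in WT mice, and -0.73, 0.37, -0.85, -0.95 and 0.40 in ASK1KO mice. Quantile normalization gave -0.70 and -0.75 for Map3k6 in WT mice. Family probes at least 2-fold higher in WT iBAT numbered 0 with no scaling, the percentile over bright probes, normexp and no background correction, and 2 at 1.5-fold, and 2 were at least 2-fold lower with no scaling. In ASK1KO mice they numbered 0 with no scaling and 1 with normexp. In limma, Map3k5 probe 1 passed for genotype with normexp (-1.48). For tissue with no scaling, a setting chosen after seeing the data, Map3k5 probe 1 turned to -0.69, the Map3k6 probes passed at -1.13 and -1.19, and Map3k5 probe 2 (0.073) and Map3k15 (0.28) no longer passed. Map3k6 also passed with normexp, at -0.37 and -0.42, and probe 2 with quantile normalization, at -0.53, and Map3k5 probe 2 (0.92) did not pass without a filter on dim probes. The cause was not tested. Depth is no limit for the bright Map3k6 probes, whereas Map3k15 and the Map3k5 probe 1 signal of ASK1KO tissue lay within 10 times the lowest signal well above background.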
